A study of Homo sapiens with 6 samples.

Results

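The genes described here are 10 genes of oxygen sensing and glucose transport, taken by symbol from a table of 35238 gene symbols measured by RNA sequencing in HAP1 cells. They are the HIF prolyl hydroxylases EGLN1, EGLN2 and EGLN3, the HIF subunits HIF1A and EPAS1, the glucose transporters SLC2A1 and SLC2A3, and the hypoxia targets VEGFA, CA9 and BNIP3. HAP1 is an established near-haploid human cell line. The series holds 3 libraries of wildtype HAP1 and 3 of HAP1 with a knockout of DEGS1, the desaturase that makes ceramide from dihydroceramide. Both genotypes are labelled untreated, were grown in the same medium with serum and were collected at the same interval after passage. No label names an oxygen level, a hypoxia treatment or the number of knockout clones. The question the series states is what loss of DEGS1 does to the cell, and the one comparison is knockout against wildtype.

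In cells with enough oxygen, the EGLN enzymes hydroxylate prolines of the HIF alpha subunits, which marks these proteins for the VHL ubiquitin ligase and for degradation. When oxygen is short, HIF alpha accumulates, pairs with ARNT and binds the short DNA core ACGTG or GCGTG near its target genes. HIF is therefore controlled mainly as a protein, which RNA counts do not measure. Its known targets include EGLN3, both glucose transporters, VEGFA, CA9 and BNIP3.

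Of the 10 genes, 9 had enough counts to be tested, and 2 of these rose in the knockout: EGLN3 by 1.82-fold and SLC2A3 by 1.92-fold. None fell. EGLN1, EGLN2, HIF1A, EPAS1, SLC2A1, VEGFA and BNIP3 did not pass the test, and CA9 was at most at 2 counts in any library. Over all 16954 genes tested, 4.46% were called, 1.51% as higher and 2.95% as lower, at the same threshold: an adjusted p under 0.05 (quasi-likelihood test of edgeR, Benjamini-Hochberg over all genes). Over the 9 tested genes the median log2 fold change, knockout over wildtype (log2 change below), was 0.10, against -0.02 over all genes tested. The 3 libraries of one genotype lay on one side of the other 3 in 4 of the 9 (EGLN2, EGLN3, EPAS1 and SLC2A3), and in 20.8% of all genes tested. The 10 genes were chosen with earlier results of these data known, so the shares over all genes stand as background, not as a test.

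Total counts lay between 17322756 and 28988522 for wildtype, and between 19389644 and 27659835 for the knockout. Levels are given in CPM, counts per 1000000 of the TMM-scaled library total, and each fold change rests on 3 libraries per genotype. DEGS1 stood at 105, 123 and 95.5 CPM in wildtype replicates 1, 2 and 3 and at 9.49, 6.88 and 10.4 CPM in the knockout (log2 change -3.59 ± 0.17 SE, adjusted p = 3.07e-07 in edgeR). Wildtype replicate 2 stood apart, since 3825 genes were called without it against 756 with all libraries, and 380 were called without knockout replicate 3. The labels do not say whether replicates were separate cultures, and the p-values then reflect only how far these libraries vary, possibly for technical reasons. Of 12 blood cell markers, listed because HAP1 descends from a leukaemia line, 8 were tested and 1 fell, and SPI1, HBG1 and MPO had no count in any library. Their summed level was 61.2 to 63.7 CPM in wildtype and 57.6 to 66.1 CPM in the knockout. Most of it was LYN, with a mean of 42.9 CPM in wildtype and 47.4 CPM in the knockout. The 1 that fell was KIT, from a mean of 8.09 to 4.03 CPM. Of the 8 tested, 3 had a positive and 5 a negative log2 change. Epithelial markers (3 of 7 tested fell, KRT19 without a count) summed to 76.5 to 80.2 CPM in wildtype and 70.7 to 107 CPM in the knockout. Most of that sum was KRT18, with a mean of 51.1 CPM in wildtype and 70.8 CPM in the knockout, which did not pass. The 3 that fell were counted less, and the sum hides them. EPCAM went from a mean of 2.16 to 0.275 CPM, CLDN7 from 1.17 to 0.117 CPM and ESRP1 from 5.6 to 1.95 CPM. Fibroblast markers (LUM and FAP without a count) summed to 404 to 465 CPM in wildtype and 633 to 770 CPM in the knockout. Nearly all of that sum was VIM, an intermediate filament gene not limited to fibroblasts, which rose from a mean of 421 to 712 CPM, while the means of the other 5 tested were at most 5.11 CPM and none of them passed. Of 10 endothelial markers 4 were tested, none of which passed edgeR's test, and 0 had an unadjusted p under 0.05. ERG had no count, and their sum was 8.28 to 10.9 CPM in wildtype and 8.64 to 10.1 CPM in the knockout. The part of these markers in the results below was not tested. In bulk RNA, fewer cells with a transcript and less of it per cell cannot be told apart.

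The DNA just before the start of these genes is shown because the hypoxia response element core is short enough to be read by eye. The windows are the 250 bases before the RefSeq start (GRCh38.p14), searched for ACGTG and GCGTG on both strands, so that CACGTG counts once on each strand. The table holds 10 windows for 8 of the 10 genes, with an alternative start for EGLN2 and HIF1A. No window was available for SLC2A3 or VEGFA, so these genes could not be searched. The core was found in 6 of the 10 windows, against 43.2% of 35116 windows of the same length. It was not found in the windows of EGLN3, SLC2A1 and the second starts of EGLN2 and HIF1A, and this says only that these letters are not in these windows. BNIP3 had 6 matches, between 104 and 143 bases before the start, a number reached by 0.646% of all windows. Printed are the whole window of EGLN3, which rose and has no match, the part of the BNIP3 window that holds all its matches, and short stretches around the match nearest the start of EGLN1, EGLN2 and CA9. They run 5′ to 3′ along the strand of the gene, and capitals mark the matches. EGLN3 lies at chr14:33951075-33951324 (minus strand), BNIP3 at chr10:131982014-131982173 (minus strand), EGLN1 at chr1:231422288-231422310 (minus strand), EGLN2 at chr19:40799132-40799156 (plus strand) and CA9 at chr9:35673900-35673924 (plus strand).
EGLN3: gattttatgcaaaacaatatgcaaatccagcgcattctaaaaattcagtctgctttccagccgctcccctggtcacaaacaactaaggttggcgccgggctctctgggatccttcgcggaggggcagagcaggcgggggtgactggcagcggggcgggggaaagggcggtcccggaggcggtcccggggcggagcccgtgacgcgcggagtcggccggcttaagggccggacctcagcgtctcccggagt
BNIP3: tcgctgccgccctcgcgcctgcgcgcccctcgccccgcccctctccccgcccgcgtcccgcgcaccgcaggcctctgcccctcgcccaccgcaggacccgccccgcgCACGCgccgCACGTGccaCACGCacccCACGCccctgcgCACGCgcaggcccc
EGLN1: gccgtggtgtACGTGcagagcgc
EGLN2: ggggcgcggtCACGTGcccaccggg
CA9: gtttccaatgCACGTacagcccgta

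EGLN3, also known as PHD3, is a hydroxylase whose own gene is induced by HIF. Its counts gave 19.0, 25.7 and 15.9 CPM in wildtype replicates 1, 2 and 3 and 43.3, 27.9 and 39.5 CPM in the knockout. The genotypes did not overlap, but wildtype replicate 2 and knockout replicate 2 lay close to each other, with the other knockout libraries well above all wildtype libraries. The mean rose from 20.2 ± 4.98 to 36.9 ± 8.04 CPM (SD over 3 libraries each), or by a log2 change of 0.86 (SE 0.20, adjusted p = 0.0334 in edgeR, 95% interval 0.43 to 1.30). This call was not firm. It was lost without wildtype replicate 1 (adjusted p = 0.145), wildtype replicate 3 (0.0741), knockout replicate 1 (0.119) and knockout replicate 3 (0.141), while without wildtype replicate 2 the log2 change was 1.08 (0.00465). It was also lost with scaling by library size only (0.055) and with the shared replicate number as a block (0.157), and over 16 other settings the adjusted p ran from 0.00125 to 0.157, with a positive fold change in each.

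EGLN1, or PHD2, is the hydroxylase that sets HIF levels in most cells with normal oxygen. It stood at 52.1, 61.2 and 50.4 CPM in wildtype and 50.7, 55.8 and 52.0 CPM in the knockout. The genotypes overlapped, and the log2 change was -0.05 (SE 0.11, adjusted p = 0.865 in edgeR) with a 95% interval from -0.29 to 0.19. EGLN1 shares chromosome 1 with DEGS1. Of the 59 tested genes that lie between them in the RefSeq order, 0 rose and 1 fell in edgeR's test. The median log2 change of these 59 was -0.15, against -0.04 over the 1577 tested genes of chromosome 1. EGLN2, or PHD1, is the third hydroxylase and is not known as a HIF target. It stood at 59.5, 55.9 and 60.4 CPM in wildtype and 79.3, 68.2 and 61.6 CPM in the knockout. Knockout replicate 3 lay just above the highest wildtype library. The log2 change of 0.25 (SE 0.12, adjusted p = 0.308 in edgeR) did not pass. The table also lists the readthrough symbol RAB4B-EGLN2, with 5 counts in wildtype replicate 3 and none elsewhere, and reads in exons that both symbols share could have been split by the counting.

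**Figure D1:**
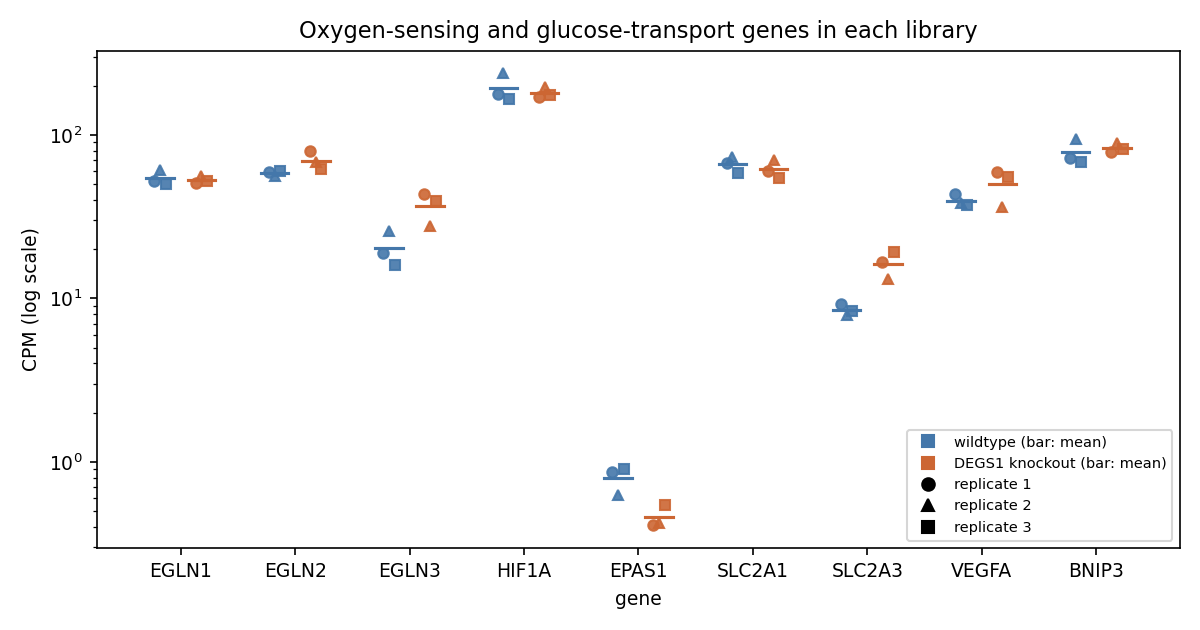
CPM on a log scale (y) of the 9 tested genes (x) in each library, with 3 wildtype (blue) and 3 knockout (orange) libraries, symbols for replicates and bars for means. The genotypes are apart for EGLN3 (15.9 to 25.7 against 27.9 to 43.3 CPM) and SLC2A3 (7.91 to 9.28 against 13.2 to 19.1 CPM). They are also apart for 2 genes that did not pass, EGLN2 (55.9 to 60.4 against 61.6 to 79.3 CPM) and EPAS1 (0.631 to 0.911 against 0.41 to 0.547 CPM). HIF1A is the most counted gene in every library.

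Ratios between hydroxylases within a library do not depend on library scaling. EGLN3 counts per EGLN1 count were 0.365, 0.419 and 0.316 in wildtype and 0.853, 0.499 and 0.761 in the knockout. Each knockout library was above each wildtype library, and the ratio was 1.89-fold higher. Per EGLN2 count, EGLN3 gave 0.320, 0.459 and 0.263 in wildtype and 0.546, 0.409 and 0.642 in the knockout. Here knockout replicate 2 fell below wildtype replicate 2, and the genotypes overlapped. An exact two-sided permutation test on log2 ratios gave p = 0.1 for EGLN3 per EGLN1, the smallest p that 3 against 3 libraries allow, and exact p = 0.2 for EGLN3 per EGLN2 and for EGLN2 per EGLN1. With 7 ratios tested, the adjusted exact p was 0.233 for each of these.

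**Figure D2:**
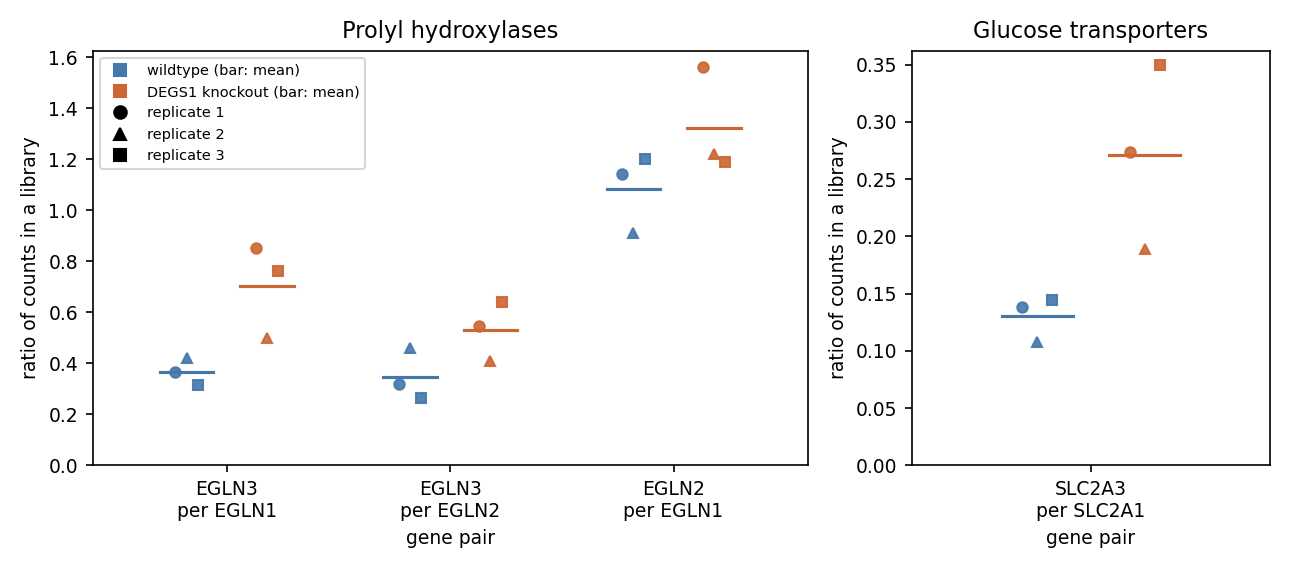
Ratio of raw counts of 2 genes in the same library (y) for 4 gene pairs (x), with wildtype in blue, knockout in orange, symbols for replicates and bars for means. EGLN3 per EGLN1 and SLC2A3 per SLC2A1 are higher in every knockout library than in every wildtype library, while EGLN3 per EGLN2 and EGLN2 per EGLN1 overlap.

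To compare levels between genes, CPM was divided by the length in kilobases of the longest GENCODE transcript, a rough scale because the transcripts in use are not known. On this scale EGLN2 was the highest hydroxylase in wildtype, at 15.3, 14.3 and 15.5 CPM per kilobase. EGLN1 stood at 7.35, 8.63 and 7.10 and EGLN3 at 6.68, 9.01 and 5.58 CPM per kilobase in the same libraries, so the order of these genes differed between libraries. In the knockout EGLN3 reached 15.2, 9.78 and 13.9 CPM per kilobase, above EGLN1 in each library (7.15, 7.87 and 7.32) and below EGLN2 in each (20.4, 17.5 and 15.8). As a share of the length-scaled sum of the family, EGLN3 went from 23.6% ± 4.24 to 33.6% ± 5.12 (SD, n = 3 each), with wildtype replicate 2 (28.2%) slightly above knockout replicate 2 (27.8%).

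Both EGLN3 and HIF1A are genes of chromosome 14, and most genes there had lower values in the knockout. Of 497 tested genes on it, 413 had a negative log2 change and the median was -0.18. At the threshold used here 3 of them, or 0.604%, rose and 22 fell, and EGLN3 is 1 of the 3, with the fifth highest log2 change of the chromosome. The 10 tested genes nearest to EGLN3 in order, 5 on each side, had log2 changes from -0.22 to 0.20 and none was called by edgeR or had an unadjusted p under 0.05. Among them is SPTSSA, a small subunit of serine palmitoyltransferase, at -0.22 (adjusted p = 0.494 in edgeR). With chromosome medians removed, EGLN3 had a log2 change of 1.06 (adjusted p = 0.00903 in edgeR).

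**Figure D3:**
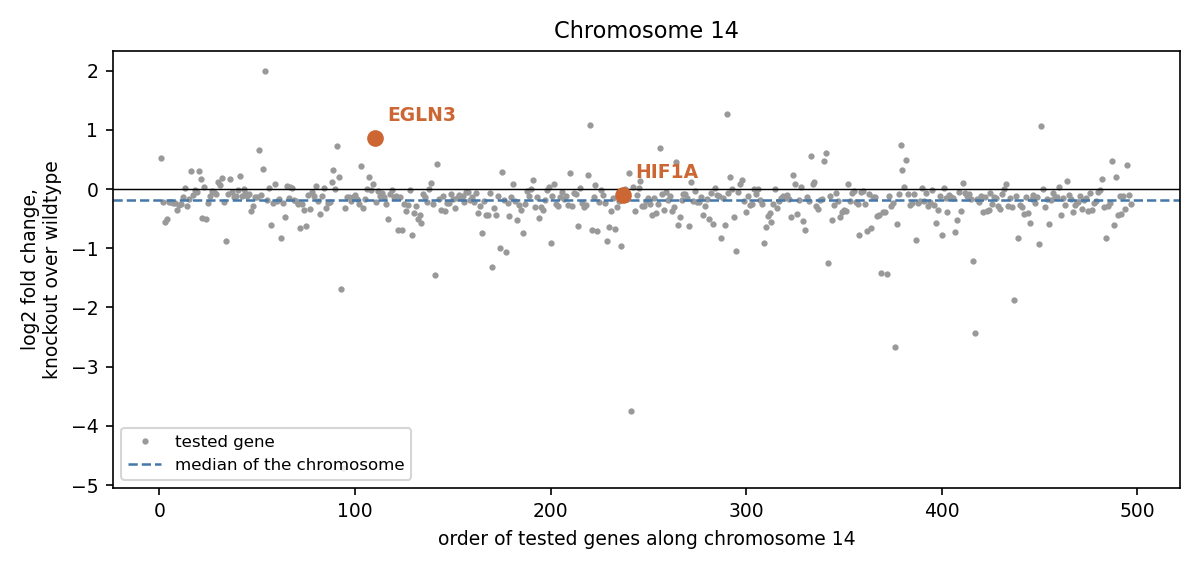
Log2 fold change, knockout over wildtype (y), of the 497 tested genes of chromosome 14 in their order along it (x), with the median as a dashed line at -0.18. EGLN3 at 0.86 lies above most of its chromosome, while HIF1A at -0.10 lies near the median.

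HIF1A, the broadly expressed oxygen-regulated subunit, was the most counted of the 10 genes. It stood at 178, 238 and 165 CPM in wildtype and 170, 197 and 175 CPM in the knockout. Replicate 2 was the highest library in each genotype, and the genotypes overlapped. The log2 change was -0.10 (SE 0.15, adjusted p = 0.782 in edgeR, 95% interval -0.43 to 0.23), and it turned to 0.10 with chromosome medians removed and to 0.08 without wildtype replicate 2. HIF1A counts per EGLN1 count were nearly constant over the libraries, 3.27 to 3.88 in wildtype against 3.36 to 3.53 in the knockout (exact permutation p = 0.8, two-sided). EPAS1 encodes HIF2 alpha, known mainly from endothelium and some other tissues, and was near the floor of detection here. It had 22, 17 and 17 counts in the wildtype libraries against 8, 11 and 15 in those of the knockout, or 0.631 to 0.911 CPM against 0.410 to 0.547 CPM. The genotypes did not overlap, but the log2 change of -0.78 (SE 0.38, adjusted p = 0.341 in edgeR) did not pass, and its interval ran from -1.62 to 0.06. On the scale per transcript length EPAS1 made up 0.332% ± 0.114 of the HIF1A and EPAS1 sum in wildtype and 0.196% ± 0.0391 in the knockout (SD, n = 3 each).

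SLC2A3 encodes GLUT3, a glucose transporter of high affinity best known from neurons. It stood at 9.28, 7.91 and 8.36 CPM in wildtype and 16.6, 13.2 and 19.1 CPM in the knockout. The wildtype libraries lay within a narrow band, and every knockout library was above it. The mean rose from 8.51 ± 0.697 to 16.3 ± 2.96 CPM (SD over 3 libraries each), or by a log2 change of 0.94 (SE 0.17, adjusted p = 0.00771 in edgeR, 95% interval 0.57 to 1.31). The call was lost only without knockout replicate 3 (adjusted p = 0.0637, log2 change 0.81), among 17 other settings with adjusted p from 5.39e-05 to 0.0637.

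Reads of SLC2A3 can also match near-identical copies, which makes its count less certain. SLC2A14, a transporter gene that arose by duplication and lies beside it, had 30, 22 and 38 counts in the wildtype libraries against 17, 16 and 31 in those of the knockout (log2 change -0.60 ± 0.41 SE, adjusted p = 0.517 in edgeR). SLC2A3 counts per SLC2A14 count were 7.87, 9.68 and 4.11 in wildtype and 19.0, 21.6 and 16.9 in the knockout, with no overlap (exact permutation p = 0.1, two-sided). The pseudogene SLC2A3P1, named after its values were seen, had 0, 35 and 1 counts in the wildtype libraries against 11, 73 and 178 in those of the knockout. It was high in replicate 2 of both genotypes and highest in knockout replicate 3, also the library with the most SLC2A3, and did not pass (adjusted p = 0.396 in edgeR). With the counts of SLC2A3, SLC2A14 and the SLC2A3 pseudogenes summed, which was an added setting chosen with the data seen, there were 327, 315 and 255 counts for wildtype against 392, 484 and 796 for the knockout, and the log2 change was 0.83 (adjusted p = 0.0204 in edgeR). Of the 10 tested genes nearest to SLC2A3 none was called by edgeR and 1 had an unadjusted p under 0.05, with log2 changes from -1.0 to 0.16.

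SLC2A1 encodes GLUT1, the main transporter of proliferating cells. It stood at 67.2, 73.2 and 58.2 CPM in wildtype and 60.4, 70.2 and 54.6 CPM in the knockout. The genotypes overlapped (log2 change -0.10 ± 0.13 SE, adjusted p = 0.732 in edgeR, 95% interval -0.38 to 0.17). Per transcript length SLC2A1 remained the higher of the transporters in every library, and SLC2A3 made up 10.3%, 8.25% and 10.7% of their sum in wildtype and 18.6%, 13.6% and 22.6% in the knockout. In raw counts SLC2A3 per SLC2A1 was 0.138, 0.108 and 0.144 in wildtype and 0.274, 0.189 and 0.350 in the knockout. The ratio was 2.04-fold higher without overlap (exact permutation p = 0.1, two-sided, adjusted exact p = 0.233 over 7 ratios).

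VEGFA, the secreted growth factor that draws in blood vessels, stood at 43.3, 38.3 and 37.4 CPM in wildtype and 59.2, 36.4 and 55.2 CPM in the knockout. Knockout replicates 1 and 3 were above all wildtype libraries and knockout replicate 2 was below all of them. The log2 change was 0.34 (SE 0.16, adjusted p = 0.330 in edgeR), and VEGFA passed only without knockout replicate 2 (log2 change 0.53, adjusted p = 0.0419) among 16 other settings, where the adjusted p reached 0.704. BNIP3, a mitochondrial receptor for mitophagy, stood at 72.3, 93.8 and 68.4 CPM in wildtype and 79.0, 89.3 and 82.4 CPM in the knockout. All knockout libraries lay within the wildtype range (log2 change 0.10 ± 0.13 SE, adjusted p = 0.759 in edgeR, 95% interval -0.19 to 0.38). The table lists 39 BNIP3 pseudogene symbols, 20 of which had counts, with 110 to 189 counts in all per library. CA9, a cell surface carbonic anhydrase and a commonly used hypoxia marker, had 0, 1 and 2 counts in wildtype and none in the knockout. Its 3 wildtype counts correspond to 0.0426 CPM on unscaled totals (exact Poisson 95% interval 0.00878 to 0.124, counting error only). The count of 0 in 74654435 knockout counts has an exact Poisson 95% interval from 0 to 0.0494 CPM. The floor of 3 counts would be 0.0402 CPM on that total, and no difference was detectable at this depth.

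**Figure D4:**
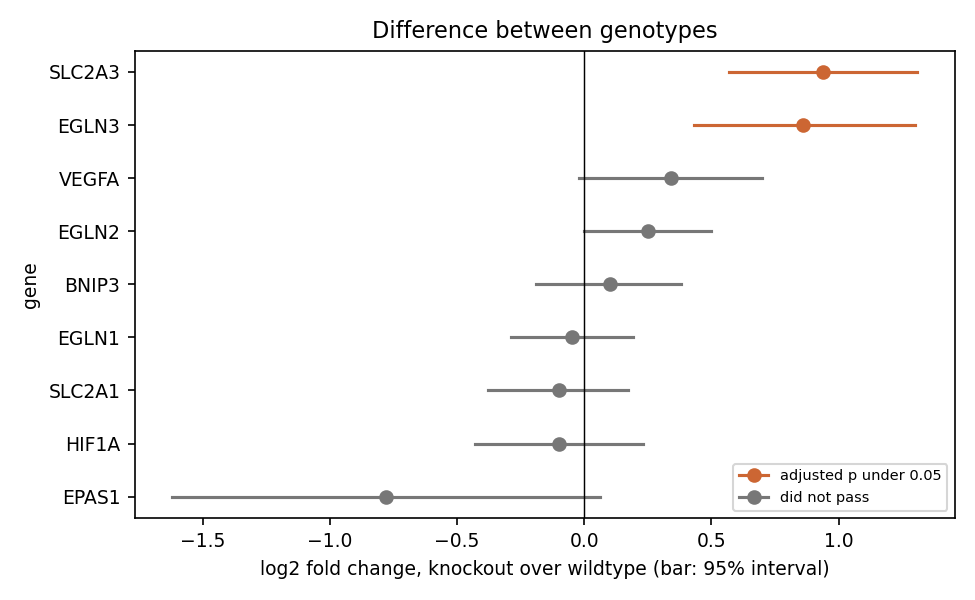
Log2 fold change, knockout over wildtype (x), with its 95% interval for the 9 tested genes (y), in orange where the adjusted p was under 0.05. The intervals of SLC2A3 (0.57 to 1.31) and EGLN3 (0.43 to 1.30) lie above 0, and that of EPAS1, which has few counts, is the widest.

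Of all genes tested 4.46% were called and 16.5% had an unadjusted p under 0.05 in edgeR, and the counts of the other pathway genes stand beside these shares. Of 17 tested genes of the oxygen-sensing machinery 4 had such an unadjusted p and 1 fell, SIAH1, a ubiquitin ligase that acts on the EGLN enzymes. It stood at 38.6, 36.0 and 33.5 CPM in wildtype and 26.9, 27.8 and 25.5 CPM in the knockout (log2 change -0.43 ± 0.11 SE, adjusted p = 0.0476 in edgeR). SIAH1 did not pass in 10 of 16 other settings, with adjusted p from 0.0157 to 0.315. These include chromosome medians removed (-0.27, 0.249) and the fits without wildtype replicate 1 (0.315), wildtype replicate 3 (0.0578), knockout replicate 1 (0.18), knockout replicate 2 (0.0834) and knockout replicate 3 (0.263). VHL, the ligase subunit that recognises hydroxylated HIF, had a log2 change of 0.09 (SE 0.12). HIF1AN, the asparagine hydroxylase of HIF, had one of -0.01 (SE 0.10), and neither passed. ARNT, the partner of HIF alpha, had one of -0.25 (SE 0.11) without overlap of the genotypes. In edgeR its unadjusted p was 0.0365 and its adjusted p 0.26. The others with an unadjusted p under 0.05 were EP300 (-0.61, SE 0.21) and ARNT2 (0.37, SE 0.16), which did not pass and whose genotypes overlapped. The median of the list was -0.01, and without wildtype replicate 2 it held 7 calls, 4 higher and 3 lower.

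None of 26 tested genes of glycolysis and lactate passed edgeR's test, DESeq2's Wald test or limma voom, and 3 had an unadjusted p under 0.05 in edgeR. Their median log2 change was 0.05, with 16 positive and 10 negative. PDK1, a kinase that inhibits pyruvate dehydrogenase, had the smallest p. PDK1 stood at 33.3, 31.2 and 35.3 CPM in wildtype and 24.3, 27.0 and 28.8 CPM in the knockout (log2 change -0.32 ± 0.11 SE, adjusted p = 0.178 in edgeR). It passed without wildtype replicate 2 (0.0379), where the list held 7 calls, 6 higher and 1 lower. None of 9 other tested glucose transporters passed in any of these 3 tests, and 1 had an unadjusted p under 0.05. That gene, SLC2A12, had a mean of 0.486 CPM in wildtype and 1.06 CPM in the knockout (log2 change 1.09 ± 0.40 SE, adjusted p = 0.181 in edgeR, and 0.016 without wildtype replicate 2).

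Among 33 other tested hypoxia targets 10 had an unadjusted p under 0.05 and 2 rose, with a list median of -0.01 and 16 positive and 17 negative log2 changes. MET, the receptor of hepatocyte growth factor, stood at 66.8, 67.3 and 75.7 CPM in wildtype and 95.1, 150 and 119 CPM in the knockout. Every knockout library was higher (log2 change 0.80 ± 0.15 SE, adjusted p = 0.0106 in edgeR), and the call was kept in 16 of 16 other settings. VLDLR, a lipoprotein receptor, stood at 44.2, 36.0 and 37.6 CPM in wildtype and 56.6, 57.0 and 49.8 CPM in the knockout (log2 change 0.47 ± 0.12 SE, adjusted p = 0.0402 in edgeR). VLDLR no longer passed in 7 of 16 other settings, including when wildtype replicate 3 (0.103) or knockout replicate 1 (0.14), 2 (0.117) or 3 (0.0845) was left out, with adjusted p from 0.00966 to 0.14. Widely used hypoxia-response genes in this list did not pass: the log2 change was -0.02 (SE 0.23) for ADM, a vasoactive peptide, -0.01 (SE 0.27) for DDIT4, an inhibitor of mTORC1, -0.06 (SE 0.12) for KDM3A, a histone demethylase, and -0.53 (SE 0.33) for ANKRD37. These 4 genes were picked for their use as markers, after their values could be seen, and all have a negative log2 change. Besides MET and VLDLR, the genes of this list with an unadjusted p under 0.05 in edgeR went in both directions, and none passed. Higher were BNIP3L (0.48), LOX (0.44), MXI1 (0.41), P4HA2 (0.39) and TGFA (1.04, at a mean of 0.962 CPM in wildtype). Lower were BHLHE40 (-0.64), RORA (-0.51) and PLOD2 (-0.30).

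None of 8 VEGF family members and receptors, 10 other carbonic anhydrases and 9 mitophagy receptors that were tested passed edgeR's test, DESeq2's Wald test or limma voom. An unadjusted p under 0.05 was reached by 1, 2 and 1 of them, and their median log2 changes were 0.00, -0.13 and 0.19. FLT4, the receptor of VEGFC, had a log2 change of -0.59 (SE 0.26, adjusted p = 0.279 in edgeR, and 0.00966 without wildtype replicate 2). CA1 had one of -1.19 (SE 0.39, adjusted p = 0.137 in edgeR, and 0.0212 without wildtype replicate 2) at a mean of 1.15 CPM in wildtype. BNIP3L, the closest relative of BNIP3, stood at 43.0, 59.8 and 42.5 CPM in wildtype and 59.7, 74.2 and 68.3 CPM in the knockout. Its knockout replicate 1 lay just under wildtype replicate 2, and the log2 change of 0.48 (SE 0.15, adjusted p = 0.103 in edgeR) did not pass. BNIP3L passed without wildtype replicate 2 (0.00106), as it did in 3 further settings. The same gene is also in the list of other hypoxia targets, so it enters the counts of both lists.

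**Figure D5:**
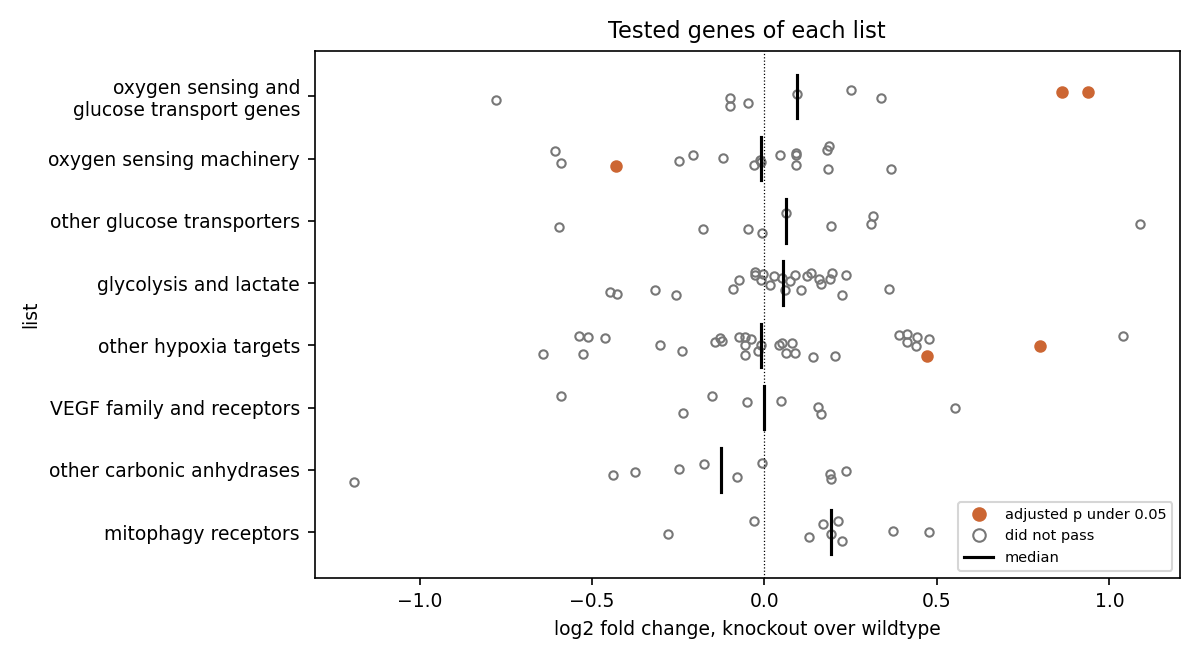
Log2 fold change, knockout over wildtype (x), of each tested gene in 8 lists (y, jittered within a row), filled where the adjusted p was under 0.05, with black bars for list medians. List medians lie between -0.13 and 0.19, and the filled points are EGLN3, SLC2A3, MET and VLDLR on the right and SIAH1 on the left.

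The genes whose log2 CPM followed the called members most closely over the 6 libraries were taken from 11430 others with a mean of at least 5 CPM. For EGLN3 they were LAMB1, a laminin chain (Pearson r 0.997), TSPAN17 (0.996) and HRK (0.994), and for SLC2A3 they were FAM219A (0.995), QSOX2 (0.995) and PRR16 (0.994). These values describe 6 libraries that share genotype and replicate differences, and 156 genes had an r over 0.95 with EGLN3 and 97 with SLC2A3. EGLN3 and SLC2A3 themselves had an r of 0.864. LAMB1 also rose, from a mean of 59.1 to 91.9 CPM (log2 change 0.63, adjusted p = 0.0363 in edgeR), and the other 5 did not pass, with adjusted p from 0.0865 (TSPAN17) to 0.471 (HRK).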

How the data were processed

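RNA from 3 wildtype and 3 DEGS1 knockout samples of HAP1 was made into stranded total RNA libraries and sequenced as single reads, per the labels' protocols. The authors deposited raw read counts, as whole numbers, for each gene symbol. The build hg19 and bcl2fastq 2.20 are named in GEO's list, per the submitters' processing notes. For aligner, counter, annotation and strand setting, nothing is given in the sources used here. Overlapping, antisense and near-identical genes could therefore have been split or merged. The RefSeq table of GRCh38.p14 gave names, chromosomes, gene order and the windows before gene starts, and GENCODE release 29, also of another build than the counts, gave transcript lengths. All 179 list entries were matched, 3 by an earlier name.

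The test was that of edgeR 4.0.16 (R 4.3.3): TMM scaling, edgeR's expression filter, a robust quasi-likelihood F test on genotype, and Benjamini-Hochberg adjustment over all 16954 genes tested. A gene was called at an adjusted p under 0.05, and each SE was derived as the size of the log2 change divided by the root of its F statistic. The floor, 3 counts, equals 0.109 to 0.161 CPM. On simulated data drawn from the library sizes and means of these samples, 16671 genes were tested. Of genes changed 1.5-fold, 21 of 66 (31.8%) were recovered. The same held for 54 of 67 (80.6%) of those changed 2-fold and 59 of 65 (90.8%) of those changed 4-fold. Beside these recovered genes stood 19 false calls. No simulated library was made to stand apart as wildtype replicate 2 did.

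The members and lists were chosen with earlier results of these data known. Named are the 10 members, DEGS1, up to 4 called genes of each pathway list or else its smallest p, and the 3 genes most correlated with each called member; other genes are named as background or as chosen after their values were seen. Alternatives were scaling by upper quartile, by library size only or by size factors (DESeq2 1.42.0), limma 3.58.1 voom, the Wald test of DESeq2, 2 other filters, the replicate number as a block, leaving out 1 library at a time, chromosome medians removed, and a spline trend on length and GC removed. Summing near-identical copies was added after seeing the data.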

Additional observations from a re-analysis of the deposited data

How the results depend on the processing

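Over the alternatives, EGLN3 and SLC2A3 kept a positive log2 fold change in each, and none of the other 7 tested members was called in any, except VEGFA without knockout replicate 2. The signs of EGLN1 and HIF1A, both near 0, turned: EGLN1 had 0.00 with the length and GC trend removed and 0.05 without wildtype replicate 2, and HIF1A had 0.10 with chromosome medians removed and 0.08 without wildtype replicate 2. With 1 library left out EGLN1 ran from -0.10 to 0.05 and HIF1A from -0.20 to 0.08. The cause was not tested. The count of members called was 1 with library size only and 1 with the replicate block (EGLN3 adjusted p = 0.157 in edgeR), in each case SLC2A3. The count for the oxygen-sensing machinery was 0 with DESeq2 size factors, no filter on low counts, chromosome medians removed, the DESeq2 Wald test and limma voom. The count for other hypoxia targets was 1 with upper-quartile scaling and limma voom, and 5 with no filter, the replicate block, and the length and GC trend removed. The count for mitophagy receptors was 1 under these last 3 settings. That gene was BNIP3L, which is in both lists and so is also 1 of those 5. With 1 library left out, all genes called ran from 380 to 3825, members from 0 (without knockout replicate 3) to 3 (without knockout replicate 2), oxygen-sensing machinery from 0 to 7, other glucose transporters from 0 to 1, glycolysis and lactate from 0 to 7, other hypoxia targets from 1 to 7, the VEGF family from 0 to 1, other carbonic anhydrases from 0 to 4 and mitophagy receptors from 0 to 2. The highest of each of these counts, except that of the members, came without wildtype replicate 2. Same-numbered libraries correlated in their deviations from the genotype means by r = 0.215, 0.309 and -0.125 over 16954 genes, and wildtype replicate 3 correlated best with knockout replicate 1 (0.364), so the values alone do not pair them. Same-numbered libraries also share a suffix in their labels, whose meaning is not stated, and whether it marks a shared day or batch is not known. With the number as a replicate block, 1082 genes were called against 756. EPAS1 and CA9 are limited by depth.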
